A study of Mus musculus with 4 samples.

Results

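The genes of ribosome assembly were followed in mouse adrenal glands 1 h after an injection of dexamethasone, a synthetic glucocorticoid. The set holds 42 ribosome biogenesis factors out of 54532 gene entries in the count table. They were picked by their known roles, with the dexamethasone and PBS levels in these same libraries already known. What they do between those groups is therefore a description, and the number that passed a test gives no support to the choice. Each of the 42 symbols matched a single entry, and all 42 passed the filter on low counts, beside 16027 genes that did so in the whole table.

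Adult male C57BL/6 mice received an intraperitoneal injection of either 10 µg of dexamethasone or PBS, the vehicle, with 5 mice in each group, and tissue was taken 1 h later. RNA came from the right adrenal glands, combined into pools of 2 and 3 mice, so that each group has 2 libraries and no single-animal values. The gland was taken whole, and both groups share strain, sex and injection route. In a whole gland, fewer cells that express a gene and less of its RNA per cell cannot be told apart.

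Ribosomes are built in the nucleolus. RNA polymerase I makes a long precursor RNA, small nucleolar ribonucleoproteins (snoRNPs) of the box C/D and box H/ACA kinds methylate or pseudouridylate it at positions picked out by their guide RNA, and a long series of assembly factors folds, cuts and exports the small and large subunits. The transcription factor Myc is a known activator of many of these genes in growing cells, and many of the encoded proteins leave the subunit again before it enters translation.

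Levels are CPM, counts per 1e6 counts of the library, on library sizes scaled by the trimmed mean of M values. Fold changes set dexamethasone over PBS, as log2 values with their standard errors (SE). A gene passed when its adjusted p was under 0.05, from the quasi-likelihood test of edgeR with Benjamini-Hochberg correction over all 16027 genes. The libraries of a group are pools of different mice, so each p measures the spread between pools.

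The libraries held between 21904510 and 26948588 counts assigned to genes, and each of the 42 genes had from 256 to 12796 counts in each library. The glucocorticoid-induced genes answered the injection: 6 of 8 listed targets rose, among them Fkbp5, a co-chaperone of the glucocorticoid receptor, with a log2 fold change of 1.24 ± 0.19 and an adjusted p of 0.012. Tsc22d3, which encodes the glucocorticoid-induced leucine zipper, rose by 1.41 ± 0.15 on the same scale, with an adjusted p of 0.005. Adrenal cortex markers such as Star and Cyp11a1 summed to 46261 and 42880 CPM after dexamethasone and to 61919 and 62808 CPM after PBS. All 8 were lower in both dexamethasone libraries, beside 29.7% of all genes. Their median log2 fold change was -0.48, and 2, Nr5a1 and Fdx1, fell. Chromaffin cell markers made up 7714 to 11798 CPM with overlapping groups, and 0 of 7 passed. None of 6 endothelial and 6 fat cell markers passed, and 2 of 7 macrophage markers, Cd163 and Mrc1, rose.

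Most of the ribosome biogenesis factors stood lower after dexamethasone. Of the 42, 9 fell (21.4%), namely Nhp2, Ppan, Gar1, Eif6, Gnl3, Nop56, Bysl, Brix1 and Rrs1, by 1.56-fold to 2.05-fold. None of the 42 rose, and 33 did not pass either way. Over all genes tested, 1.37% fell and 3.26% rose. At an unadjusted p under 0.05 the count was 23 lower and 1 higher, beside 13.1% and 14.3% of all genes. DESeq2 called 16 lower and 0 higher, beside 5.42% and 5.7%, and limma-voom called 9 lower and 0 higher, beside 1.34% and 3.16%. The median log2 fold change of the 42 genes was -0.42, which is 1.34-fold lower, beside 0.01 for all genes tested. In 34 genes both dexamethasone libraries lay below both PBS libraries, which was so for 29.7% of all genes. In 4 genes, Polr1a, Polr1b, Dkc1 and Utp20, both lay above, which was so for 30.8% of all genes. The groups overlapped in the other 4, Utp15, Tsr1, Wdr12 and Rrp1b.

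**Figure D1:**
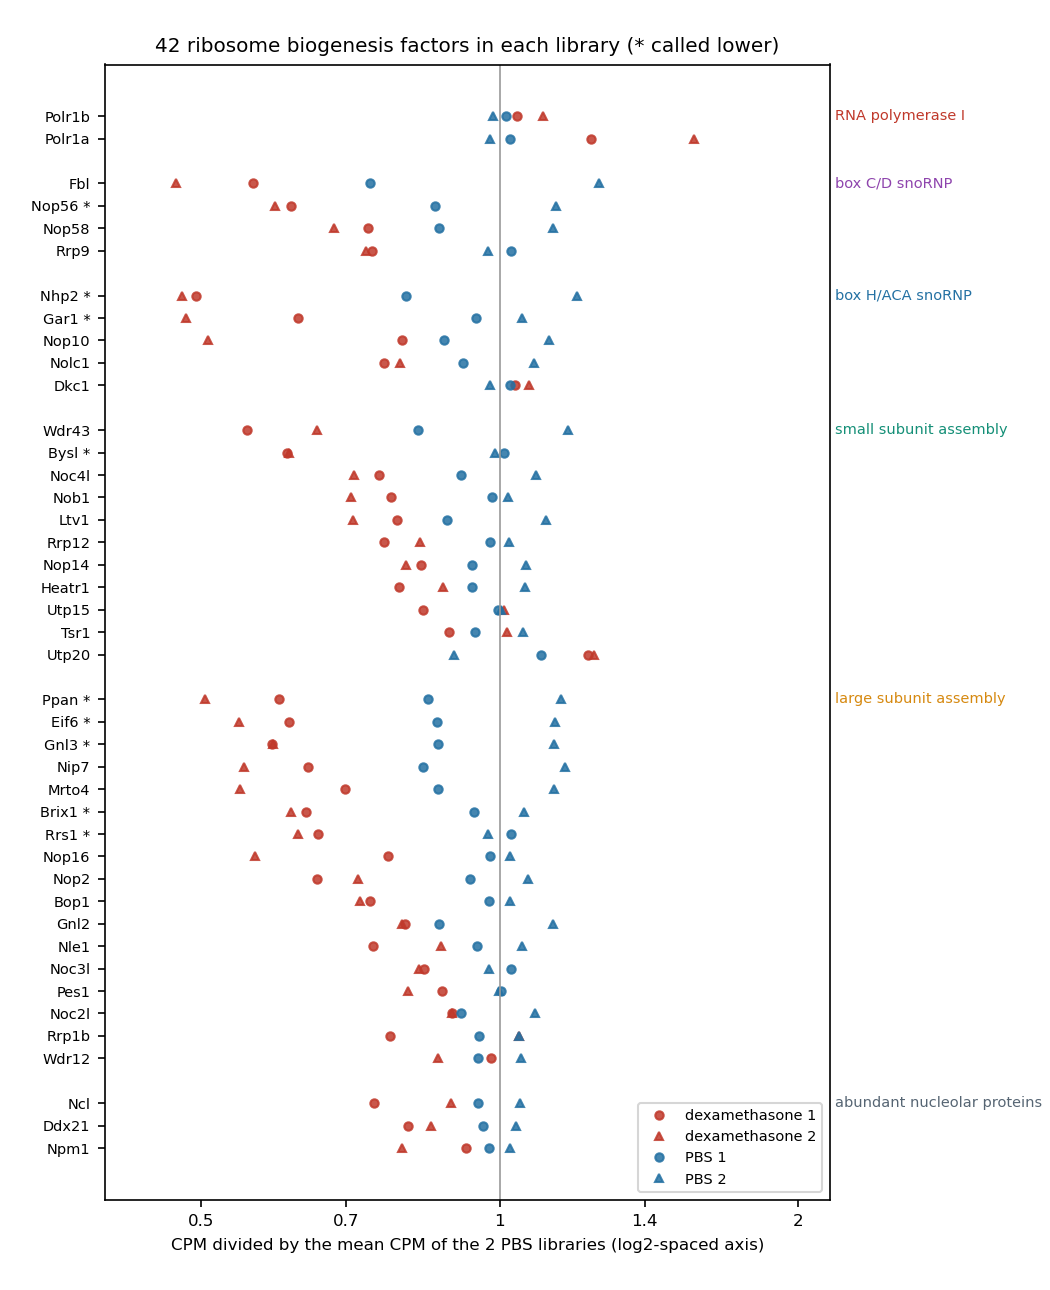
CPM of each of the 42 genes in the 4 pooled libraries, divided by its mean in the PBS libraries (x axis, log2-spaced), with 1 gene per row, grouped by role and ordered by fold change within a role. Red marks dexamethasone, blue PBS, circles the first and triangles the second library, and a star a gene that passed. The red points lie left of both blue points in 34 genes and right of both in 4.

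Promoters are shown here because so many of the genes stood lower together. RefSeq promoters (GRCm38.p6, 250 bases before to 50 bases after the annotated start) were matched for 35 of the 42 genes, with Bop1, Eif6, Fbl, Gnl2, Npm1, Rrp12 and Rrs1 unmatched. These 35 genes had 39 promoter entries, and a gene was counted once where any of its entries held the motif. The E-box CACGTG, the letters that Myc and Max bind, stood in 7 of 35 genes (20.0%). The share was 8.09% of all genes with a promoter and 11.3% of those tested. The ETS letters CCGGAAG stood in 12 of 35 (34.3%), beside 9.93% and 18.1%. The cAMP response element TGACGTCA stood in 2 of 35 (5.71%), beside 2.03% and 3.41%, and the core of the glucocorticoid response element, ACANNNTGT, in 2 of 35 (5.71%), beside 7.90% and 5.55%. The NRF1 motif stood in 0 of 35, beside 1.07% and 2.12%. Each motif was searched on both strands and none contains another. Of the 7 matched genes that fell, none held the E-box and 4, Brix1, Gar1, Nhp2 and Ppan, held the ETS letters. A match is a stretch of letters and not a shown binding site. The 60 bases printed for each of 5 genes lie before the start and run 5′ to 3′ on the gene's strand. Capitals mark the E-box in Nop2, the cAMP response element in Ppan, and the ETS letters in Gar1 (as their reverse complement), Nhp2 and Brix1. Nop2 is printed because its E-box lies before the start, unlike those of the other genes with an E-box. Its printed bases also hold the ETS letters, left in lower case. The other 4 are genes that fell.
Nop2, chr6:125131796-125131855, plus strand: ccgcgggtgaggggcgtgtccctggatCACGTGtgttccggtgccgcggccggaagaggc
Ppan, chr9:20888113-20888172, plus strand: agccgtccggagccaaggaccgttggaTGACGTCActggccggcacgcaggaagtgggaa
Gar1, chr3:129831407-129831466, minus strand: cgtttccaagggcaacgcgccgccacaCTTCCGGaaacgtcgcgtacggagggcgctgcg
Nhp2, chr11:51619713-51619772, plus strand: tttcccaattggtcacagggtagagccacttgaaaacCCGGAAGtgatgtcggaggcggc
Brix1, chr15:10485987-10486046, minus strand: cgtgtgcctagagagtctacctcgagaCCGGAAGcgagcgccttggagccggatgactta

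Polr1a and Polr1b, the RNA polymerase I genes among the 42, had log2 fold changes above 0, and neither passed. Polr1a, the largest subunit and part of the catalytic centre, stood at 161 and 205 CPM after dexamethasone and at 133 and 127 CPM after PBS. Both treated libraries were higher, with a log2 fold change of 0.49 ± 0.16, but the gene did not pass (adjusted p = 0.094). Polr1b, the second-largest subunit, stood at 21.5 and 22.9 CPM against 21.01 and 20.4 CPM, a difference of 0.10 ± 0.15. Both genes are long, and with the trend of fold change on gene length removed, as described below, their values were 0.17 and -0.0003.

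All 4 box C/D proteins were lower in both dexamethasone libraries, with a median log2 fold change of -0.61. This particle carries the 2′-O-methylation of ribosomal RNA. Nop56, one of its core scaffold proteins, stood at 48.9 and 47.1 CPM after dexamethasone and at 68.3 and 90.5 CPM after PBS. It fell by 0.72 ± 0.17 (adjusted p = 0.045). Fbl, the methyltransferase fibrillarin, stood at 54.3 and 45.5 CPM against 71.4 and 121 CPM. Its log2 fold change of -0.95 ± 0.23 was larger, but its PBS libraries lay far apart and it did not pass (adjusted p = 0.055). Nop58, the partner of Nop56 in the scaffold, stood at 48.7 and 45.0 CPM against 57.5 and 74.8 CPM, a log2 fold change of -0.50 ± 0.16. Rrp9, a protein of the U3 particle, stood at 19.4 and 19.1 CPM against 26.8 and 25.4 CPM, a log2 fold change of -0.44 ± 0.15.

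Among the 5 box H/ACA genes, the catalytic subunit stood apart from its partners. Dkc1, the pseudouridine synthase dyskerin, stood at 36.0 and 37.3 CPM after dexamethasone and at 35.6 and 33.98 CPM after PBS, a log2 fold change of 0.07 ± 0.14. Nhp2, a core RNA-binding protein of the same particle, stood at 26.6 and 25.8 CPM against 43.4 and 64.5 CPM. It fell by 1.04 ± 0.20 on the log2 scale (adjusted p = 0.025). Gar1, another core partner, stood at 15.7 and 12.1 CPM against 23.7 and 26.4 CPM, and fell by 0.85 ± 0.18 (adjusted p = 0.038). Both treated libraries of each lay below both PBS libraries. Nop10, the smallest core protein, stood at 47.0 and 30.0 CPM against 51.8 and 66.2 CPM, a log2 fold change of -0.62 ± 0.22 that did not pass (adjusted p = 0.117). Nolc1, a chaperone of snoRNPs, stood at 71.3 and 73.9 CPM against 85.5 and 101 CPM, a log2 fold change of -0.36 ± 0.14. The difference between Dkc1 and its partners was not tested. Nop10, Nhp2 and Gar1 have deposited gene lengths of 1109, 1146 and 1714 bases, shorter than the 4121 bases of Dkc1.

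Of the 11 small subunit factors, 10 had a log2 fold change below 0 and 1 fell, with a median of -0.33. Bysl, the bystin protein needed for late processing of the small subunit, stood at 27.7 and 27.8 CPM after dexamethasone and at 45.7 and 44.8 CPM after PBS. The libraries of each group nearly coincided, and Bysl fell by 0.71 ± 0.14 (adjusted p = 0.029). Wdr43, a component of the early small subunit processome, stood at 38.5 and 45.4 CPM against 57.3 and 81.2 CPM. Its log2 fold change of -0.72 ± 0.19 was of like size, with a wider PBS spread, and did not pass (adjusted p = 0.062). Utp20, a large scaffold of the same particle, was the exception in direction, at 56.2 and 57.0 CPM against 50.3 and 41.1 CPM, a log2 fold change of 0.31 ± 0.15 (adjusted p = 0.224). The other 8, Nob1, Noc4l, Ltv1, Rrp12, Nop14, Heatr1, Utp15 and Tsr1, had log2 fold changes between -0.44 and -0.07. Nob1, the nuclease that makes the final cut at the end of the small subunit RNA, stood at 28.7 and 26.1 CPM against 36.2 and 37.6 CPM.

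Of the 17 large subunit factors, 5 fell, beside 9 of all 42 genes and 1.37% of all genes tested. With the length trend removed 1 of the 17 fell. All 17 had a log2 fold change below 0, with a median of -0.54. Eif6, which keeps the immature large subunit from joining the small one, stood at 71.7 and 63.8 CPM after dexamethasone and at 101 and 133 CPM after PBS. It fell by 0.79 ± 0.17 (adjusted p = 0.037). Ppan, a factor of early large subunit assembly, stood at 19.6 and 16.5 CPM against 27.8 and 37.8 CPM, and fell by 0.86 ± 0.19 (adjusted p = 0.042). Gnl3, the GTP-binding nucleolar protein nucleostemin, stood at 35.8 and 35.8 CPM against 52.6 and 68.8 CPM, and fell by 0.76 ± 0.16 (adjusted p = 0.039). In each of these the PBS libraries were further apart than the dexamethasone libraries, and the groups did not overlap.

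Brix1, a member of the same protein family as Ppan, stood at 37.7 and 36.4 CPM after dexamethasone and at 55.7 and 62.5 CPM after PBS, and fell by 0.67 ± 0.14 (adjusted p = 0.036). Rrs1, which helps bring the 5S RNA particle into the large subunit, stood at 38.4 and 36.7 CPM against 60.2 and 57.0 CPM, and fell by 0.64 ± 0.14 (adjusted p = 0.038). For both, the gap between groups was wider than either pair of libraries. Nip7, Mrto4, Nop16, Nop2 and Bop1 had log2 fold changes from -0.74 to -0.45 and did not pass, nor did Gnl2, Nle1, Noc3l, Noc2l and Rrp1b, at -0.32, -0.31, -0.26, -0.16 and -0.14. The PeBoW complex, in which Bop1, Pes1 and Wdr12 work together on the large subunit RNA, had uneven values. Bop1 stood at 60.7 and 59.3 CPM against 80.0 and 84.1 CPM, Pes1 at 64.2 and 59.4 CPM against 73.6 and 73.3 CPM, and Wdr12 at 25.5 and 22.6 CPM against 24.7 and 27.4 CPM. Their log2 fold changes were -0.45 ± 0.13, -0.25 ± 0.14 and -0.12 ± 0.16, none passed, and the differences among them were not tested. Wdr12 has the longest deposited gene length of the 42 genes, 11955 bases, and the order depended on length: removing the length trend put Wdr12 at -0.43, Bop1 at -0.32 and Pes1 at -0.13, with none passing.

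The 3 abundant nucleolar proteins had log2 fold changes from -0.29 to -0.22, and none passed. Ncl, the RNA-binding protein nucleolin, stood at 378 and 452 CPM after dexamethasone and at 482 and 532 CPM after PBS, a log2 fold change of -0.29 ± 0.16. Its gene is long, and its value was -0.56 (adjusted p = 0.079) without the trend on deposited length and -0.68 (adjusted p = 0.051) without that on mRNA length. Npm1, the nucleolar chaperone nucleophosmin, stood at 226 and 195 CPM against 239 and 250 CPM, a log2 fold change of -0.22 ± 0.15. Ddx21, an RNA helicase, stood at 97.9 and 103 CPM against 117 and 126 CPM, a log2 fold change of -0.27 ± 0.14. Npm1 has processed pseudogenes in the mouse genome, so its counts are uncertain. Per kilobase of deposited gene length, levels of the 42 genes spanned 40.8-fold, from 85.4 RPKM, the CPM value divided by that length, for Npm1 to 2.09 RPKM for Wdr12, and Ncl, Nop10, Nhp2 and Eif6 followed Npm1 at 45.2, 43.9, 34.98 and 34.2 RPKM.

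**Figure D2:**
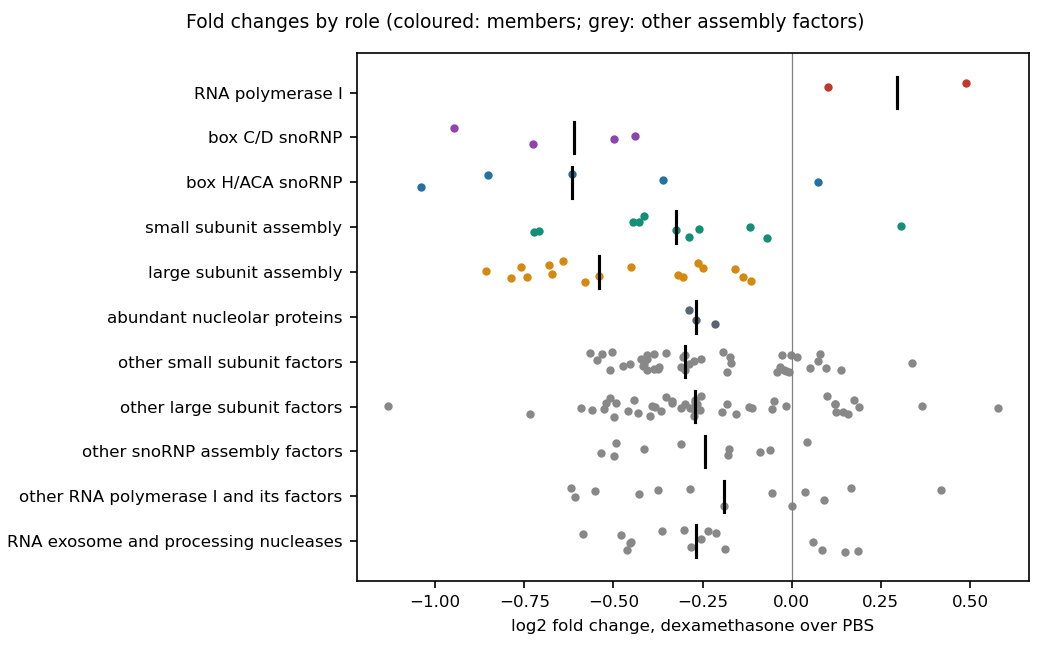
Log2 fold change, dexamethasone over PBS (x axis), of each of the 42 genes by role (coloured points) and of 129 other assembly factors by list (grey points), with the median of each row as a black bar. The medians run from -0.62 for box H/ACA genes to 0.29 for the RNA polymerase I genes among the 42, and from -0.30 to -0.19 for the other lists.

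Gene length moved with the fold changes in these libraries. Across 14249 protein-coding genes tested, log2 fold change and log2 deposited gene length had a Pearson correlation of 0.39, so that shorter genes lay lower after dexamethasone, and across the 42 genes it was 0.58. All these values share the same 4 libraries. Of the 16 genes shorter than 3000 bases, all 16 had a log2 fold change below 0, with a median of -0.56, beside 75.3% and -0.28 for the coding genes of that class. Of the 18 genes from 3000 up to 6000 bases, 16 were below 0, with a median of -0.32, beside 50.1% and -0.0009. Of the 8 genes of 6000 bases or longer, 6 were below 0, with a median of -0.20, beside 24.3% and 0.23. In total 39 of the 42 lay below the trend of coding genes at their own length, beside 7192 of the 14249 coding genes. The median difference of the 42 from this trend was -0.33. Polr1a, Dkc1 and Utp20 lay above it.

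With the length trend removed from each library, 2 of the 42 genes fell and none rose, beside 0.817% and 1.96% of all genes. They were Gnl3, at -0.88 (adjusted p = 0.037), and Bysl, at -0.68 (adjusted p = 0.029). The median of the 42 was then -0.33, with 39 below 0, beside 7761 of all 16027 genes. Nhp2 moved from -1.04 to -0.57 (adjusted p = 0.104), Gar1 to -0.55, Rrs1 to -0.40, Brix1 to -0.51 and Eif6 to -0.62, while Nop56 at -0.72 and Ppan at -0.84 kept nearly the same value, and none of these 7 passed. The deposited length is far above the mRNA length for some of the genes, such as Gnl3 with 6101 against 1947 bases, so the trend was also taken over mRNA length, a choice made after the data were seen. By that measure Bysl at -0.81 (adjusted p = 0.019) and Brix1 at -0.61 (adjusted p = 0.036) fell, beside 1.04% of all genes. Gnl3 then stood at -0.58 (adjusted p = 0.071), and the median of the 42 was -0.37. Bysl was the gene that fell by both measures of length.

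**Figure D3:**
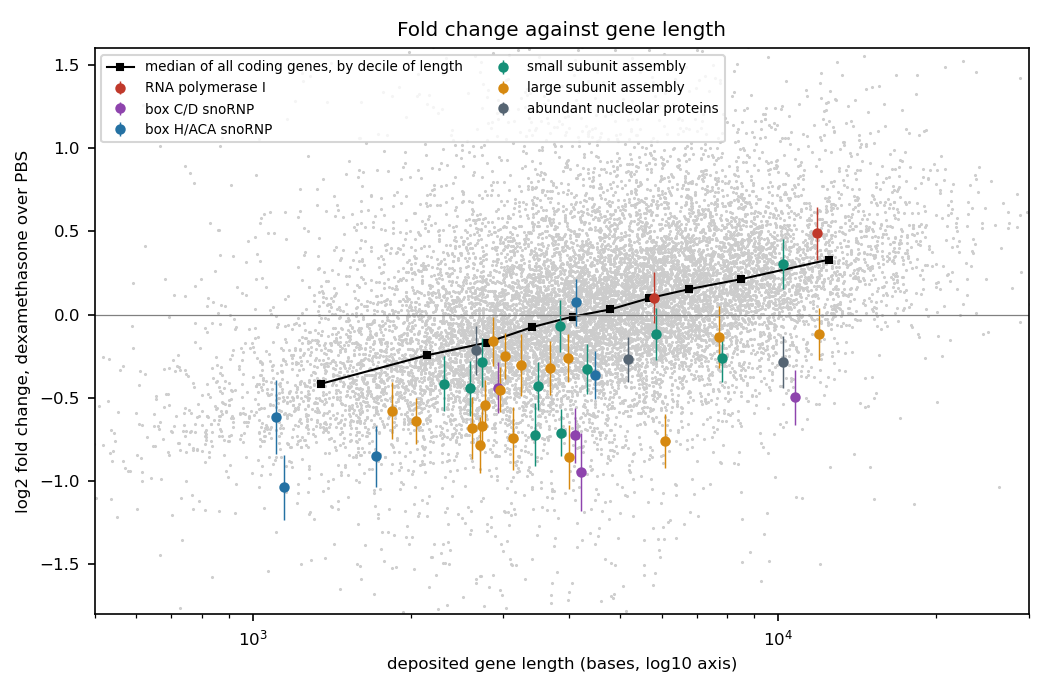
Log2 fold change, dexamethasone over PBS (y axis), against deposited gene length in bases on a log axis (x axis). Grey points are protein-coding genes tested (a few beyond the axis limits are not drawn), coloured points with SE bars the 42 genes by role, and black squares joined by a line the medians of coding genes in 10 length classes of equal size. All 16 coloured points shorter than 3000 bases lie below 0.

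Length also moved with differences between libraries of the same group. Across the 42 genes, the log2 ratio of the second to the first dexamethasone library had a correlation of 0.57 with log2 length, and the ratio of the second to the first PBS library one of -0.26. Over coding genes with a value these were 0.33 and -0.20. The second PBS library was above the first in 33 of the 42 genes (78.6%), by a median of 0.16 on the log2 scale, beside 49.7% of all genes. The second dexamethasone library was above the first in 17 genes.

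The count of genes that fell depended on single libraries. Leaving out the second dexamethasone library gave 2, Nhp2 and Wdr43, beside 0.911% of all genes. Leaving out the second PBS library gave 5, Bysl, Eif6, Gar1, Nhp2 and Rrs1, beside 1.77%. Without the first dexamethasone library 13 fell, beside 5.42% of all genes, and without the first PBS library 22 fell, beside 10.3%. The median log2 fold change over these leave-outs ran from -0.50 to -0.30. Nhp2 passed in all 4, with log2 fold changes from -1.31 to -0.73. Bysl, Gar1 and Eif6 passed in 3, and Nop56, Brix1, Ppan, Rrs1 and Gnl3 in 2. Bysl had the narrowest range of these, from -0.73 to -0.71. With 1 library left in a group, the lone library is assumed to vary like the others.

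**Figure D4:**
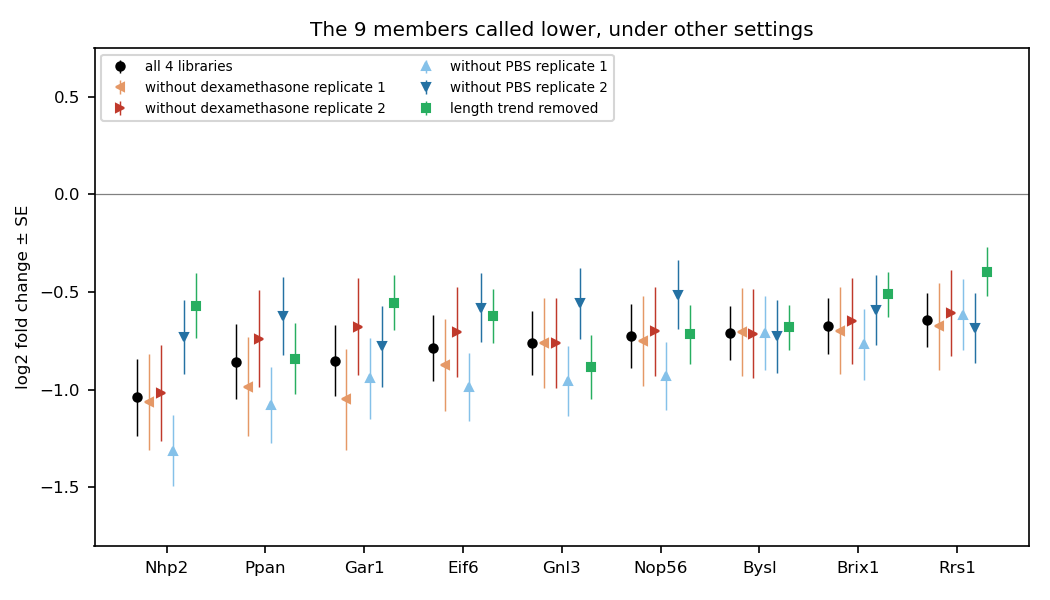
Log2 fold change with SE bars (y axis) of each of the 9 genes that fell (x axis), with all 4 libraries, with each library left out in turn, and with the length trend removed. All points lie below 0, and the values of Bysl lie closest together.

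Other transcripts stood lower along with these genes. The 8 adrenal cortex markers, which mark the main cell type of the gland, had a median of -0.48 beside -0.42 for the 42 genes. With the trend on deposited length removed these medians were -0.34 and -0.33, and with that on mRNA length -0.29 and -0.37. The summed level of the 8 markers was lower in both dexamethasone libraries, as given above. Red blood cell markers summed to 146 and 137 CPM after dexamethasone and to 226 and 394 CPM after PBS, so that the second PBS library was highest for them too. Of these 5 genes, 3 fell, with a median log2 fold change of -1.17, and none of the 5 was at 0 in any library. They are short, with a median deposited length of 768 bases. With the length trend removed their median was -0.55 and 0 of 5 fell. All 24 listed genes of cytosolic ribosomal proteins, which are mostly short, were lower in both dexamethasone libraries, beside 29.7% of all genes. Their median was -0.58. In edgeR's test 0 passed, and 23 had an unadjusted p under 0.05, beside 13.1% of all genes lower at that level. Removing the length trend brought the median to -0.30 over deposited length and to -0.14 over mRNA length. Cell division genes had a median of -0.09, and 0 of 12 passed. The part of these differences in the values of the 42 genes was not tested.

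Further ribosome assembly factors, from lists of 130 genes of which 129 were tested, lay lower as well. By edgeR's test 0 rose and 0 fell. At an unadjusted p under 0.05, 44 were lower and 4 higher, beside 13.1% and 14.3% of all genes. DESeq2 called 7 of 129 lower and 1 higher, beside 5.42% and 5.7% of all genes, so its share lower was near that of all genes. With limma-voom 0 were called either way, beside 1.34% and 3.16%. The median log2 fold change of the 129 was -0.28, with 103 of them below 0, beside 49.0% of all genes. In 81 both dexamethasone libraries lay below both PBS libraries, which was so for 29.7% of all genes. Once the trend on length was removed, their median was -0.15. By list, the median was -0.30 for 43 small subunit factors, -0.27 for 47 large subunit factors and -0.24 for 10 snoRNP assembly factors. It was -0.19 for 13 genes of RNA polymerase I and its factors, and -0.27 for 16 genes of the RNA exosome and processing nucleases. Whether the 42 genes differ from these was not tested.

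The gene with the smallest p in each list did not pass. Nol10, a small subunit factor, had a log2 fold change of -0.57 ± 0.16 (adjusted p = 0.075). Mdn1, the giant ATPase that strips factors from the large subunit, went the other way at 0.58 ± 0.14 (adjusted p = 0.054), and at a length of 21836 bases its value with the length trend removed was 0.09, or -0.01 over mRNA length. Pih1d1, a subunit of a chaperone complex for snoRNPs, stood at -0.53 ± 0.14 (adjusted p = 0.064), and Exosc3, a cap subunit of the exosome, at -0.59 ± 0.16 (adjusted p = 0.068). Polr1e, a subunit of RNA polymerase I, stood at -0.62 ± 0.18 (adjusted p = 0.072), and the further subunit genes Znrd1, Polr1d and Polr1c at -0.61, -0.55 and -0.43, each with both dexamethasone libraries below both PBS libraries, unlike Polr1a and Polr1b. These 3 are given to set beside Polr1a and Polr1b and were chosen after their values were seen. With the length trend removed, Znrd1 stood at -0.08, Polr1d at -0.43 and Polr1c at -0.22. Of the same list, Cd3eap stood at -0.19, or -0.008 with the length trend removed. Twistnb stood at 0.04, or -0.02 with the length trend removed, and its groups overlapped. The initiation factor Rrn3 stood at -0.0004 ± 0.15 (adjusted p = 0.999), and Ubtf, which binds the ribosomal RNA genes, at -0.29 ± 0.15 (adjusted p = 0.237). Of the 13 genes of that list, 9 had a log2 fold change below 0 and 4 above. Ttf1, named after its values were seen, was the highest at 0.42 ± 0.16 (adjusted p = 0.133), or 0.31 with the length trend removed. Gtpbp4, a GTPase of large subunit assembly and named after its values were seen, was the 1 gene of the 129 that fell with the length trend removed, at -0.81 (adjusted p = 0.031), beside -0.56 ± 0.15 before (adjusted p = 0.061).

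Myc itself stood at 34.1 and 33.04 CPM after dexamethasone and at 46.5 and 60.7 CPM after PBS. Both treated libraries were lower, but the gene did not pass at a log2 fold change of -0.67 ± 0.17 (adjusted p = 0.055). Of the 11 genes of the Myc network, 2 rose and 0 fell, beside 3.26% and 1.37% of all genes. Mga, which pairs with Max and competes with Myc, rose by 0.76 ± 0.16 (adjusted p = 0.034), and Mxd4, another Max partner that represses, rose by 0.73 ± 0.16 (adjusted p = 0.039). With the length trend removed Mga stood at 0.38 (adjusted p = 0.121), Mxd4 at 0.52 (adjusted p = 0.069) and Myc at -0.51 (adjusted p = 0.091). Max stood at -0.08 ± 0.15 and Mxd1 at 0.61 ± 0.17 (adjusted p = 0.070). Mycl stood at 0.73 ± 0.31 (adjusted p = 0.174), with both dexamethasone libraries above both PBS libraries. Mxi1 stood at 0.22, Mnt at 0.003, Mxd3 at -0.05, Mlx at -0.10 and Mycn at -0.25, and none of these passed.

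Several of the genes carry other transcripts inside them. In GENCODE M21, 8 of the 42 (19.0%) hold a snoRNA gene on their own strand, beside 243 of 17216 coding genes with a count (1.41%). Nop56 holds 5, Nop58 holds 4, Gnl3, Ncl and Wdr43 hold 3 each, Ppan and Tsr1 hold 2 each, and Dkc1 holds 1. The median log2 fold change was -0.61 over the 8 hosts, of which 3 fell, and -0.39 over the other 34, of which 6 fell. Over all genes tested, 1.37% fell. With the length trend removed the medians were -0.68 and -0.33. Then 1 host and 1 other gene fell, beside 0.817% of all genes. Whether hosts differ from the other 34 was not tested. The hosts' excised snoRNAs were not analysed here.

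Overlapping genes limit some of these counts. The strand setting of the counting is not given in the sources used here, and the labels name a NEBNext Ultra kit without saying whether it kept strand. Bysl (chr17:47599331-47611492, minus strand) shares 361 exonic bases with Ccnd3 on the opposite strand, and Ccnd3 had 37778 counts over the 4 libraries beside 3655 for Bysl. Tsr1 shares 1240 exonic bases with Srr on the opposite strand, Noc2l 598 with Samd11 and Heatr1 155 with Lgals8. Among the other genes that fell, Eif6 (chr2:155819832-155826925, minus strand) shares 138 with the antisense gene Gm16098, which had 7 counts, Nhp2 (chr11:51619735-51623714, plus strand) 44 with Rmnd5b, Gnl3 (chr14:31012433-31019152, minus strand) 15 with Pbrm1 and Nop56 (chr2:130274430-130279313, plus strand) 5 with Idh3b. Where reads were counted without strand, those in the shared bases cannot be told apart, and the values of Bysl, Tsr1 and Heatr1 are uncertain to that extent. Gene positions are those of the count table, on GRCm38, and exons those of GENCODE M21.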

How the data were processed

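RNA was sequenced from 4 libraries, 2 per group, each a pool of mouse right adrenal glands. The authors deposited a table of raw counts per gene with a gene length column. The submitters' processing notes list STAR 2.5, HTSeq 0.6.1 and CASAVA 1.8, with mm10 and GRCm38 as builds. Columns were matched to samples by treatment letter (D or S) and replicate number, and 0 sample columns were left unmatched.

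From the counts, edgeR 4.0.16 in R 4.3.3 filtered low genes by group, scaled libraries by TMM and ran the quasi-likelihood test over 16027 genes, with 2 residual degrees of freedom and a biological coefficient of variation of 0.149. DESeq2 1.42.0, limma-voom (limma 3.58.1), library totals, no filter, length trends (lowess, span 0.3), replicate blocks and leave-outs were alternatives. The main test and the removal of the deposited length trend were tried on simulated data first, and the other settings were not. Sequences and gene models came from RefSeq and GENCODE M21, in which 98.3% of matched identifiers, and 40 of the 42 genes, had the table's coordinates. Same-numbered libraries did not deviate together across genes (correlation -0.03), and the main test did not pair them. With 2 libraries per group, this correlation cannot exclude a pairing by number. Libraries within groups differed beyond sampling noise (chi-square per degree of freedom 24.1 and 31.7). Counts carry counting error as well as pool differences, and depth alone does not limit the genes named.

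The members and lists were chosen with earlier results of these data known. Named were genes that passed, per role the smallest p, the largest change and the highest RPKM, the shortest and longest, Myc, Rrn3, Ubtf, Fkbp5, Tsc22d3, and the smallest p per other list. The other members are given with their role. Protein features planned for these genes were not analysed here.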

Additional observations from a re-analysis of the deposited data

How the results depend on the processing

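Removing the length trend left 2 of the 42 genes lower, over deposited or mRNA length, DESeq2 gave 16, testing without a filter gave 17 lower and 1 higher (Polr1a), and leaving out 1 library gave 2 to 22 lower and 0 to 1 higher; library totals and limma-voom stayed within 1.5 times of the 9. The median of the 42 genes was -0.33 with library totals, -0.33 with the length trend removed and -0.50 to -0.30 in the leave-outs. Library totals move the median of all genes from 0.01 to 0.10. Whether the replicate numbers pair the libraries is not known. With the replicate number as a block 1 of the 42 genes was lower (Nhp2), or 2 with the length trend removed too. Over all genes the block gave 244 higher and 89 lower, or 257 and 129 with the length trend removed.

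Over all genes, 893 were higher with library totals; 1384 higher and 1329 lower without a filter; 314 and 131 with the length trend removed; 265 higher with the mRNA length trend removed; 913 and 868 with DESeq2; and 342 to 1551 higher and 146 to 1654 lower in the leave-outs. Of the other assembly factors, 1 was higher with library totals; 1 higher and 15 lower without a filter; 1 lower with either length trend removed, and with the block and length trend; 1 higher and 7 lower with DESeq2; and 0 to 1 higher and 0 to 33 lower in the leave-outs. Their median was -0.18 with library totals, -0.15 with the length trend removed, -0.14 over mRNA length, -0.15 with the block and length trend, and -0.35 to -0.21 in the leave-outs. The cause of these shifts was not tested.

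Some genes changed sign. Over mRNA length, Mdn1 went from 0.58 to -0.0103, Utp20 from 0.31 to -0.0848, Npm1 from -0.22 to 0.0323 and Polr1b from 0.10 to -0.0104, and Polr1b went to -0.0003 over deposited length and to -0.0007 with the block and length trend. With library totals, Tsr1 went to 0.0254 and Rrn3 to 0.0912. Leave-out ranges that crossed 0 were -0.3678 to 0.0637 for Rrp1b, -0.1695 to 0.0255 for Tsr1, -0.258 to 0.0131 for Utp15 and -0.1715 to 0.1526 for Rrn3, with the highest value in each without the first dexamethasone library. With 2 libraries a group, leave-outs assume that a lone library varies like the others.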
